A study of Mus musculus with 95 samples.

Results

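The livers described here came from zQ175 mice, a knock-in model of Huntington's disease, and comprised 8 heterozygous knock-in (KI) and 8 wild type (WT) small-RNA libraries, 16 of the 95 libraries of the study. They were chosen by the genotype, line and tissue written in the sample titles. The KI mice were Het Z_Q175 (neo-) KI animals of strain CHDI-81003019, from which the neomycin selection cassette (neo) had been deleted, and the WT mice were their littermates, labelled with the same strain. Both groups were on a C57BL6/J background, were 6 months old, held 4 males and 4 females, and contributed 1 left liver lobe per animal, so the 16 libraries stand for 16 animals. The zQ175 allele carries an expanded CAG repeat in the mouse huntingtin gene and acts in every tissue that uses that gene. Huntingtin is not a microRNA (miRNA), so these libraries hold no check of the genotype labels.

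A miRNA is cut from a hairpin precursor and guides a silencing complex to messenger RNAs, mainly through its seed, bases 2 to 8 of the mature strand. Hepatocytes are known for very high miR-122 and high miR-192, miR-194 and miR-148a, while miR-124, miR-9 and miR-128 mark neurons and miR-486, miR-144 and miR-451a mark red cells. In Huntington's disease most work on miRNAs has been done in the brain, and the liver serves here as a peripheral tissue that carries the same allele.

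The deposited table held estimated counts for 1881 hairpin features, and each feature carried an accession without a name. The names used below are those the accessions carry in the human miRBase set. They were supplied from general knowledge, because no table used here pairs the accessions with names, and they were given to 87 of the 131 features tested. As a check, the count and FPKM tables together imply a feature length, and in 30 of 30 named accessions examined that length was within 0.5 nt of the human hairpin of that name. Counts are per hairpin, so the 2 arms of a hairpin cannot be told apart, and where several hairpins give the same mature miRNA the estimates divide its reads among them. Features are given as human hairpin names, and the sequences as those of the mouse miRNA of the same name.

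The sequences that the results turn on are given from RefSeq (GRCm38.p6), 5′ to 3′, with the seed in capitals, for 1 arm of each miRNA. The first set holds abundant liver miRNAs, of which miR-30a and miR-30e share a seed and differ elsewhere.
mmu-miR-192-5p: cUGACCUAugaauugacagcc
mmu-miR-92a-3p: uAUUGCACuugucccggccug
mmu-miR-30a-5p: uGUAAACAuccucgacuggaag
mmu-miR-30e-5p: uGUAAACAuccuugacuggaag
mmu-miR-22-3p: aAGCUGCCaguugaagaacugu
mmu-miR-148a-3p: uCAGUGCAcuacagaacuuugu
mmu-miR-182-5p: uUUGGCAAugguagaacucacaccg

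The second set holds miRNAs among the 10 features with the smallest p between KI and WT livers. The miR-10a and miR-10b strands share their seed, and the 2 hairpins were nonetheless counted as separate features.
mmu-miR-200b-3p: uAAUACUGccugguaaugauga
mmu-miR-199a-3p: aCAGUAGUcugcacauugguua
mmu-miR-34a-5p: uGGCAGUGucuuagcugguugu
mmu-let-7e-5p: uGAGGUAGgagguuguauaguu
mmu-miR-10a-5p: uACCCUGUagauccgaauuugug
mmu-miR-10b-5p: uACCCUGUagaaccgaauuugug
mmu-miR-27b-3p: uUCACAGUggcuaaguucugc

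The third set holds miRNAs that differed between male and female livers, with miR-103 added because it has the seed of miR-107.
mmu-miR-21a-5p: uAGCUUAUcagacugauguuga
mmu-miR-1247-5p: aCCCGUCCcguucguccccgga
mmu-miR-802-5p: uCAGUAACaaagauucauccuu
mmu-miR-107-3p: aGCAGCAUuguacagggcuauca
mmu-miR-103-3p: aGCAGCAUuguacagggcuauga
mmu-miR-149-5p: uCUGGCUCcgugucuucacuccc
mmu-miR-99a-5p: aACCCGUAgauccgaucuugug

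Total counts per library ran from 103546 to 130574 in KI livers (median 118908) and from 74540 to 126693 in WT livers (median 107109). The mean was 17106 counts higher in KI livers (exact permutation test, two-sided, p = 0.048, adjusted p = 0.14 over 3 measures of depth and composition). Features with a count numbered 196 ± 5.03 per library in KI livers and 192 ± 11.7 in WT livers (SD, n = 8 each, exact permutation p = 0.43). No 2 libraries held identical counts. Each library name also carries a number after the letter L, whose meaning the labels do not give. It was 1 in 2 KI and 3 WT livers, 2 in 6 KI and 4 WT livers, and 3 in 1 WT liver (replicate F4). Levels are given as CPM, a library's counts scaled to a common total, adjusted by the trimmed mean of M values (TMM).

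The profile was that of liver for most markers, with 1 defining marker absent. The 9 hepatocyte hairpins together held 201290 to 295893 unscaled CPM in the 16 livers, against 1739 to 6431 CPM in the 63 brain libraries of the study. The 15 neuronal and glial hairpins held 74.4 to 345 CPM in the livers, against 79177 to 123647 CPM in the brain libraries. MI0000442, the mir-122 hairpin of hepatocytes, had a rounded count of 0 in all 16 livers, and so did mir-885 (MI0005560) of the same list. A total of 0 in 1758410 counts allows up to 1.71 CPM, for counting error only. MI0017383, the mir-3591 hairpin, which in the human genome lies on the strand opposite mir-122, had 25807 to 30697 unscaled CPM in KI livers and 26072 to 32532 in WT livers. Whether miR-122 reads were assigned to that entry was not tested. The red cell hairpin mir-451a (MI0001729) also had no count.

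The 10 most abundant features held 70.4% ± 1.07 of the counts (SD, n = 16). The leading feature was mir-192 (MI0000234), a hepatocyte miRNA, with 19.01% ± 2.24 of the counts in KI livers and 19.6% ± 1.99 in WT livers (SD, n = 8 each). It was followed by mir-92a-1 (MI0000093), of the cell-cycle cluster mir-17-92, with 11.3% ± 1.72 in KI livers and 10.9% ± 1.13 in WT livers. The mir-30a hairpin (MI0000088) took 10.5% ± 0.998 in KI livers and 10.3% ± 1.04 in WT livers. Next in order were mir-22 (MI0000078), mir-148a (MI0000253), mir-30e (MI0000749), mir-182 (MI0000272), mir-26a-1 (MI0000083), mir-30d (MI0000255) and mir-3591. The genotypes overlapped in all 10.

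The main question was which miRNAs the KI allele changes in liver. At an adjusted p under 0.05 in edgeR's quasi-likelihood test, 0 of 131 features were called (0%), and the smallest adjusted p was 0.92. At an unadjusted p under 0.05 there were 3 (2.29%). DESeq2 also called 0, with 3 at an unadjusted p under 0.05, and limma voom called 0, with 6. The log2 change (KI minus WT) was above 0 in 73 features and below 0 in 58, with a median of 0.01.

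These data bound the changes as well. For 113 of the 131 features the 95% interval of the change lay within 2-fold in either direction, and for 83 it lay within 1.5-fold. Among the 20 most abundant features the interval lay within 2-fold in 20 and within 1.5-fold in 18. For mir-192, levels ran from 145961 to 214431 CPM in KI livers (median 189376) and from 164885 to 234159 CPM in WT livers (median 190937). Its log2 change was -0.03 (95% interval -0.19 to 0.13), and 1 KI liver stood below all WT livers. For mir-148a, a hepatocyte miRNA also tied to lipid metabolism, the change was 0.04 (-0.18 to 0.26). For mir-30e it was 0.05 (-0.08 to 0.18), and for mir-26a-1 it was -0.06 (-0.19 to 0.06). The mir-182 hairpin varied most among the 10 leading features, from 15779 to 61178 CPM in KI livers (median 32677) and from 18622 to 53225 CPM in WT livers (median 35669). Its interval, -0.81 to 0.64, was correspondingly wide.

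**Figure D1:**
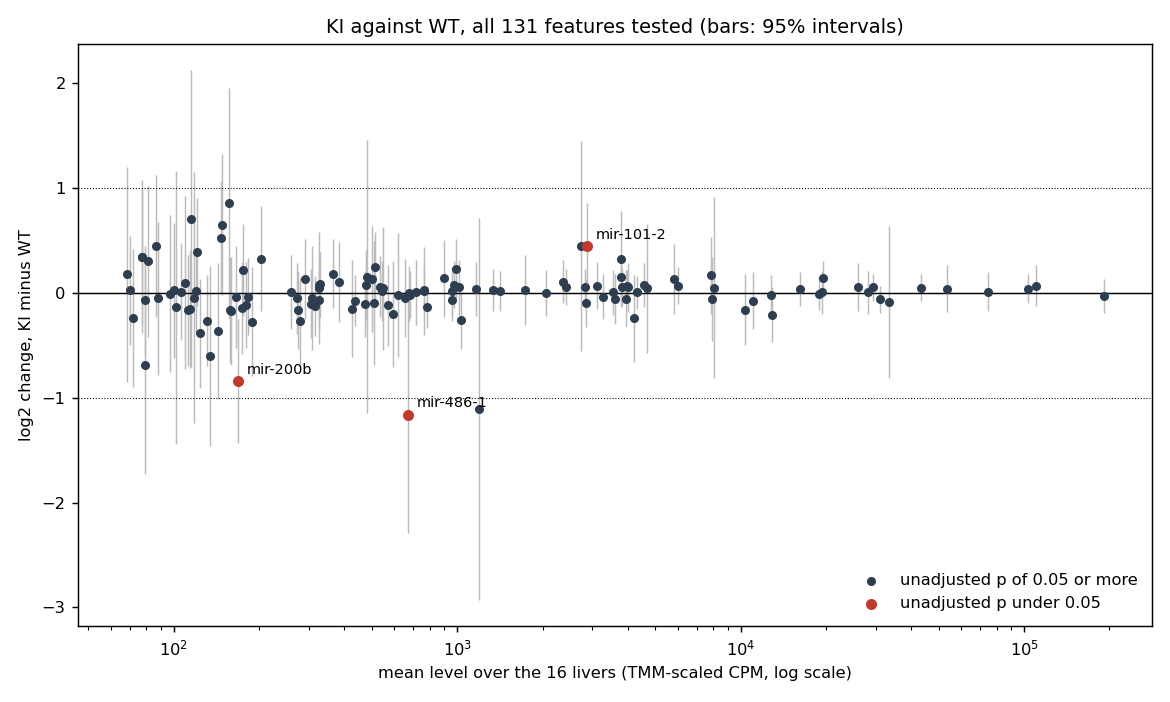
Log2 change (KI minus WT, vertical axis) against the mean TMM-scaled CPM of the 16 livers (log axis) for all 131 features tested. Vertical bars are 95% intervals, dotted lines mark a 2-fold change, red points are the 3 features with an unadjusted p under 0.05, and the intervals are narrowest among abundant features.

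The feature with the smallest p was mir-200b (MI0000342), an epithelial miRNA that in liver marks bile duct cells. It ran from 45.3 to 178 CPM in KI livers (median 127) and from 74.6 to 367 CPM in WT livers (median 200). All 8 KI livers lay below the WT median, and 1 lay below all WT livers. The log2 change was -0.84 (SE 0.29, edgeR adjusted p = 0.92), which does not pass the test. In whole tissue, fewer cells of a type and less RNA per cell cannot be told apart. In females the change was -1.23 (SE 0.37, adjusted p = 0.16) and in males it was -0.27 (SE 0.41, adjusted p = 0.99). The difference, males minus females, was 0.96 (SE 0.55, edgeR adjusted p = 0.99) and does not pass the test. Among the libraries with L number 2 alone the KI change was -0.72 (SE 0.35).

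The second was mir-101-2 (MI0000739), in the human set 1 of 2 hairpins for miR-101, which is abundant in hepatocytes. Whether the 2 hairpins give the same mature strand in the mouse was not examined. If they do not, their sum below joins 2 miRNAs. It ran from 2193 to 4317 CPM in KI livers (median 3479) and from 1754 to 3316 CPM in WT livers (median 2310), and 4 KI livers stood above all WT livers. The log2 change was 0.44 (SE 0.20, edgeR adjusted p = 0.99). The other hairpin, mir-101-1 (MI0000103), ran the opposite way, with a change of -0.24 (SE 0.20). It ran from 1973 to 5953 CPM in KI livers (median 3789) and from 3346 to 5839 CPM in WT livers (median 4619). When the 2 hairpins were summed, an alternative chosen after seeing the data, the range of the WT livers lay within that of the KI livers, with a median of 6919 CPM in KI livers and 6800 CPM in WT livers and a change of 0.02 (SE 0.17).

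The third was mir-486-1 (MI0002470), 1 of 2 hairpins for miR-486 of red cells. It ran from 0 to 1021 CPM in KI livers (median 360) and from 153 to 1813 CPM in WT livers (median 759), and 2 KI livers lay below all WT livers. The log2 change was -1.16 (SE 0.55, edgeR adjusted p = 0.99). The second hairpin, mir-486-2 (MI0023622), held most of the counts, with medians of 7006 CPM in KI livers and 8260 CPM in WT livers and a change of -0.06 (SE 0.20). KI replicate F4 had 0 CPM on mir-486-1 and 8293 CPM on mir-486-2. The summed copies gave -0.16 (SE 0.18), with medians of 7307 CPM in KI livers and 8476 CPM in WT livers.

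**Figure D2:**
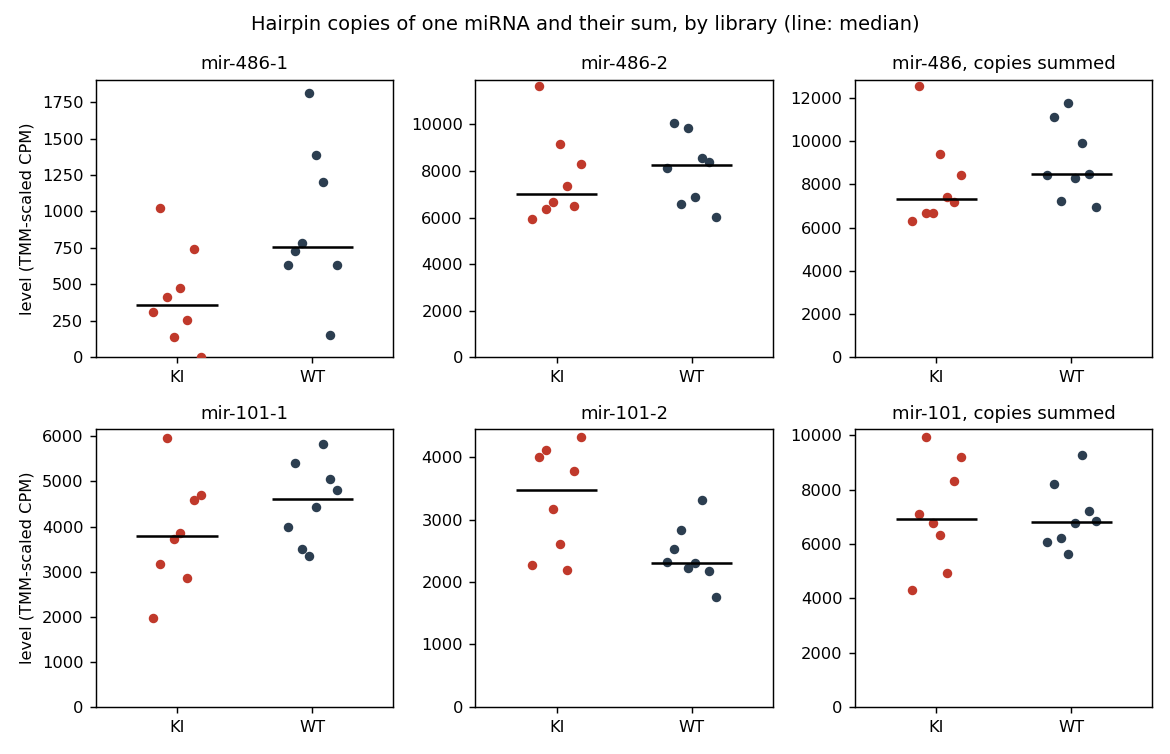
TMM-scaled CPM by library in KI (red) and WT (dark) livers for the hairpins grouped by human name as miR-486 and miR-101. Their sums are shown beside them, and bars are medians. The offset of mir-101-2 between the genotypes is not seen in the mir-101 sum, whose medians are 6919 in KI and 6800 in WT, and the mir-486 sum has medians of 7307 in KI and 8476 in WT.

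The division of counts between copies varied from library to library. In 29 of 35 copies tested, the SD of log2 levels within the genotypes exceeded that of the summed miRNA. These copies came from 18 miRNAs grouped by their human names. A copy with few counts spreads more than its sum through counting error alone, and that part was not separated. The clearest case was miR-181a, an immune and neuronal miRNA. Its copy mir-181a-2 (MI0000269) ran from 0 to 1580 CPM in KI livers and from 9.33 to 4496 CPM in WT livers, with an SD of 3.73 on the log2 scale. The SD of summed mir-181a was 0.13. With copies summed, 0 of 114 features were called (0%) and 2 had an unadjusted p under 0.05 in edgeR. These were mir-200b, at -0.87 (SE 0.28, adjusted p = 0.39), and mir-199a, at -0.30 (SE 0.12, adjusted p = 0.995).

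The other features of the 10 with the smallest p overlapped between the genotypes. The mesenchymal hairpin mir-199a-1 (MI0000242), associated with stellate cells, ran from 684 to 1264 CPM in KI livers (median 904) and from 750 to 1490 CPM in WT livers (median 1173), a change of -0.26 (SE 0.13). In females it was -0.59 (SE 0.18, edgeR adjusted p = 0.16) and in males 0.05 (SE 0.17). The p53 target mir-34a (MI0000268) ran from 81.5 to 260 CPM in KI livers (median 174.9) and from 34.9 to 202 CPM in WT livers (median 127), a change of 0.53 (SE 0.26).

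The let-7 family member let-7e (MI0000066) ran from 104 to 317 CPM in KI livers (median 150) and from 39.99 to 271 CPM in WT livers (median 95.8). All 8 KI livers lay above the WT median, and the change of 0.65 (SE 0.33) became 0.42 without KI replicate F1. The Hox cluster hairpin mir-10a (MI0000266) had medians of 20306 CPM in KI livers and 18353 CPM in WT livers, a change of 0.14 (SE 0.08). Its relative mir-10b (MI0000267) reached 747 CPM in KI replicate M2 and 87.3 to 196 CPM in the other KI livers, against 55.97 to 187 CPM in WT livers. Its change of 0.85 (SE 0.54) became 0.13 without that library. The remaining features were mir-320a (MI0000542), at 0.23 (SE 0.14), and the lipid metabolism hairpin mir-27b (MI0000440), at -0.21 (SE 0.13).

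**Figure D3:**
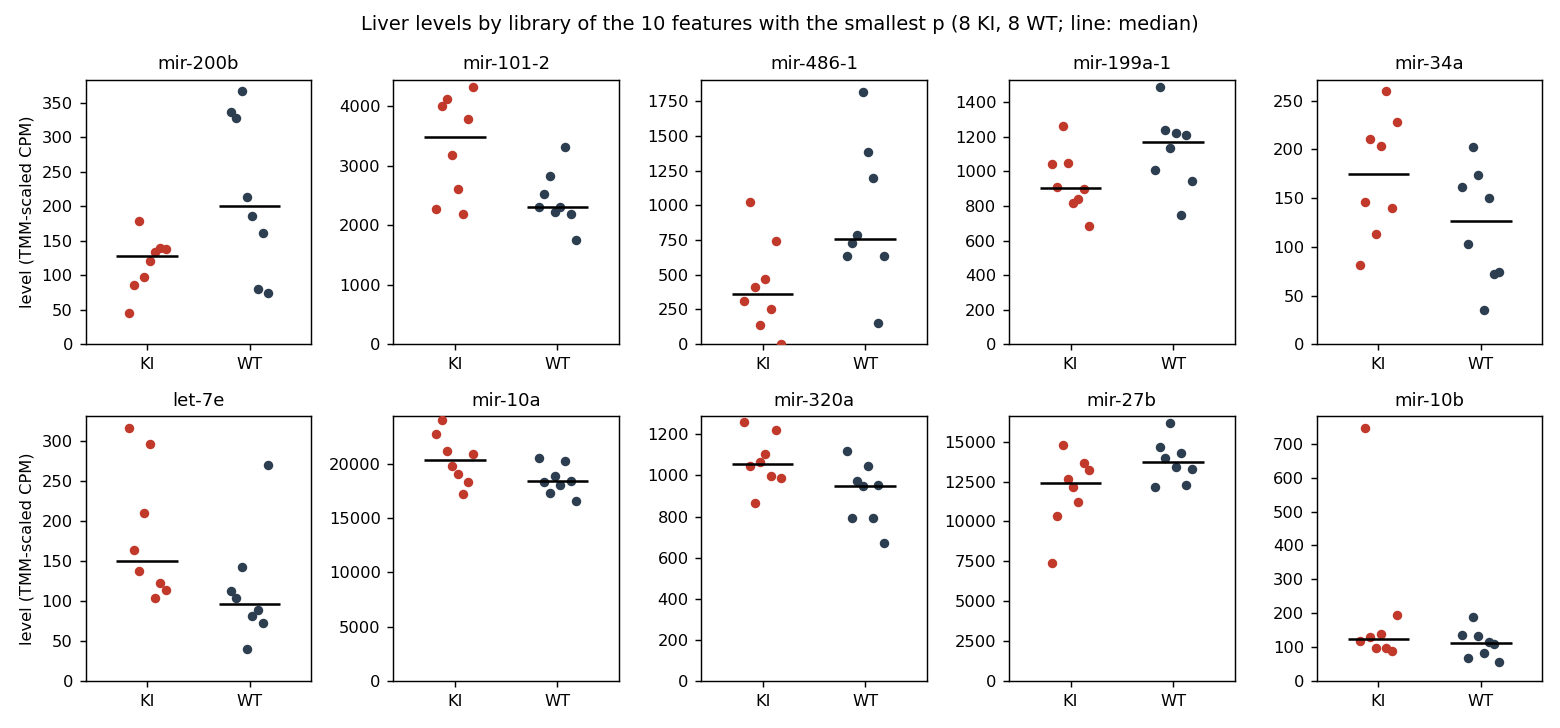
TMM-scaled CPM by library for the 10 features with the smallest p, with 8 KI livers (red) left of 8 WT livers (dark) in each panel and bars at the medians. The groups overlap in all 10 panels, and KI replicate M2 stands alone at 747 CPM in mir-10b.

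The lists of liver pathways and cell types showed 0 called members. All members' changes are set beside those of the 131 features, whose median was 0.01 and whose range was -1.16 to 0.85. Of 7 hepatocyte hairpins tested, 3 were higher in KI livers and 4 lower (median -0.03). Their summed level ran from 207555 to 284730 CPM in KI livers and from 214648 to 293998 CPM in WT livers. Of 10 tested hairpins tied to lipid and glucose metabolism, such as mir-378a (MI0000786), 8 were higher and 2 lower (median 0.04). The mir-378a hairpin averaged 16403 ± 1639 CPM in KI livers and 15994 ± 1702 CPM in WT livers (SD, n = 8 each).

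Of 9 fibrosis hairpins tested, led by mir-21 (MI0000077), 5 were higher in KI livers and 4 lower (median 0.05). Their sum ran from 25818 to 55231 CPM in KI livers and from 24020 to 52584 CPM in WT livers, a range that moved with sex, as described below for mir-21. Of 6 immune hairpins tested, 5 were higher and 1 lower (median 0.06), with sums of 2844 to 3405 CPM in KI livers and 2291 to 4158 CPM in WT livers. Of 7 endothelial and mesenchymal hairpins tested, 3 were higher and 4 lower (median -0.07). Both red cell hairpins tested were lower (median -0.59), namely mir-486-1, described above, and mir-144 (MI0000460), at -0.01. The red cell sum was 163 to 1176 CPM in KI livers and 207 to 1986 CPM in WT livers, and it does not hold mir-486-2.

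The let-7 family acts as a brake on growth genes, and all 12 of its hairpins were tested. In KI livers 8 were higher and 4 lower (median 0.05), from -0.69 to 0.65. The 6 mir-30 hairpins, which share a seed with miR-30a, moved little, between -0.01 and 0.13, with 5 higher and 1 lower. None of the 15 neuronal and glial hairpins was abundant enough to test. Of 23 hairpins reported as altered in Huntington's disease brain, 9 could be tested in liver, with 6 higher and 3 lower (median 0.02). That list was led by mir-22, at 74948 ± 7981 CPM in KI livers and 74396 ± 6830 CPM in WT livers (SD, n = 8 each).

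The KI effect was next compared with that in the neo-intact line, where the selection cassette is still present, in the same fit of 32 livers. For the difference between the lines' KI effects, edgeR called 0 of 131 features (0%), with 8 at an unadjusted p under 0.05. DESeq2 called 0 (7 at an unadjusted p under 0.05) and limma voom called 0 (14). The largest departure by p was mir-34a, with a KI change of 0.53 (SE 0.26) in neo-deleted livers and -0.64 (SE 0.26) in neo-intact livers. The difference of 1.17 (SE 0.37) had an adjusted p of 0.49. For mir-200b the change was -0.84 (SE 0.29) in neo-deleted livers and -0.27 (SE 0.30) in neo-intact livers. That difference, -0.57 (SE 0.42, edgeR adjusted p = 0.87), does not pass the test either.

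Sex was examined next, since it is balanced within the genotypes. Sex was not balanced over L number, which was 2 in every male liver but WT replicate M4. In female livers L number was 1, 2 or 3, and the main sex fit held no term for it. In male against female livers of the neo-deleted line, edgeR called 6 of 131 features (4.58%), 3 higher and 3 lower in males. The growth-related hairpin mir-21 ran from 29689 to 44985 CPM in males (median 33473) and from 13556 to 17212 CPM in females (median 15566). No male overlapped any female, and the log2 difference was 1.23 (SE 0.12, adjusted p = 1.1e-08). The mir-149 hairpin (MI0000478) ran from 45.3 to 163 CPM in males (median 105) and from 8.73 to 62.2 CPM in females (median 40.4). It was 1.60 higher in males (SE 0.34, edgeR adjusted p = 0.0019). The female levels stand for only a few counts per library, so the size of this difference is less certain.

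Hairpins lower in males were mir-1247, mir-802 and mir-107. The mir-1247 hairpin (MI0006382) ran from 48.6 to 154 CPM in males (median 109.4) and from 323 to 797 CPM in females (median 464), a difference of -2.31 (SE 0.23). The mir-802 hairpin (MI0003906), known for regulating hepatic glucose metabolism, ran from 150 to 362 CPM in males (median 189) and from 697 to 1169 CPM in females (median 739), a difference of -1.97 (SE 0.23). The insulin-related hairpin mir-107 (MI0000114) ran from 1021 to 1296 CPM in males (median 1063) and from 1354 to 1791 CPM in females (median 1634), a difference of -0.52 (SE 0.10, edgeR adjusted p = 5.7e-04). In these 3 hairpins no male overlapped any female. Like mir-21, they were picked by p in these same livers, so the separation is not further support. The sixth call, mir-99a (MI0000101), was named after its values were seen. It ran from 217 to 403 CPM in males and from 133 to 293 CPM in females, a difference of 0.56 (SE 0.16, edgeR adjusted p = 0.041).

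**Figure D4:**
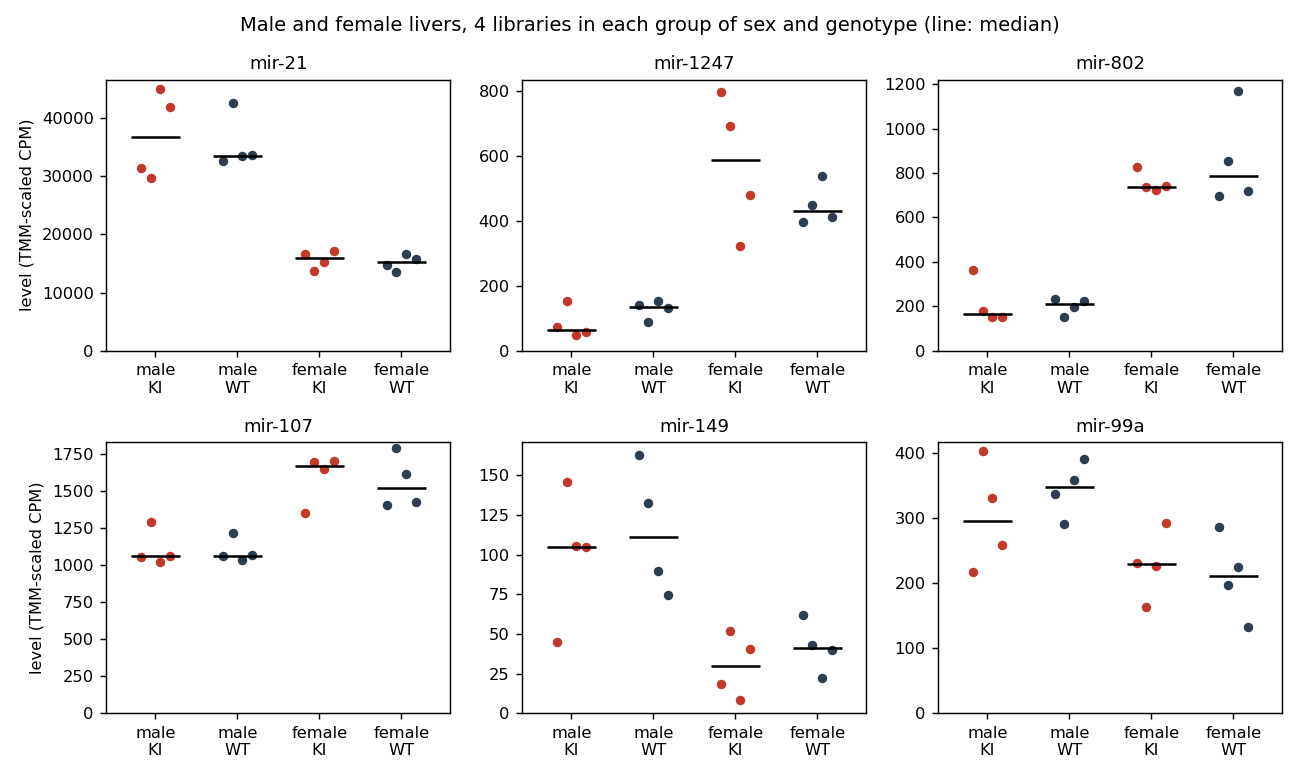
TMM-scaled CPM by library for the 6 features called between the sexes, in male KI, male WT, female KI and female WT livers (4 libraries each; bars are medians). Males and females do not overlap in mir-21, mir-1247, mir-802 and mir-107, and KI and WT livers overlap within each sex in mir-21.

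The same contrast in the 16 neo-intact livers, which had no part in these calls other than through the shared spread, called 8 features (6.11%). There mir-21 was 1.26 higher in males (SE 0.12), mir-149 1.94 higher (SE 0.35), mir-1247 -2.74 (SE 0.24) and mir-107 -0.52 (SE 0.10), all called. The mir-802 difference was -0.61 (SE 0.22, edgeR adjusted p = 0.087) and that of mir-99a 0.09 (SE 0.17). In a direct test of the sex difference between the lines, mir-802 alone was called, 1 of 131 (0.763%), at -1.36 (SE 0.32, edgeR adjusted p = 0.028).

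The KI effect was then compared between males and females, which edgeR did not separate in any feature, with 0 of 131 called (0%) and 3 at an unadjusted p under 0.05. DESeq2 called 0 (3) and limma voom called 0 (3). The feature with the smallest p was mir-199a-1, whose KI effect was 0.64 higher in males than in females (SE 0.25, adjusted p = 0.99). Within males the test called 0 features, with 2 at an unadjusted p under 0.05, and within females it called 0, with 3.

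The last comparison set the liver beside the striatum of the same line, the region most affected in Huntington's disease, in 1 fit of 31 libraries (16 liver, 15 striatum) scaled together. In striatum 12 of 210 features were called between KI and WT (5.71%), of which 4 were too low for the liver test. Of the 210 features, 79 were too low for it. The KI effect itself differed between the tissues in 2 of 210 features (0.952%), mir-187 (MI0000274) and mir-182. Both are among the 131 features tested in liver. For the 79 others the liver effect is poorly measured, so the absence of a call there says little.

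For mir-187, liver levels ran from 98.7 to 204 CPM in KI mice (median 135) and from 96.5 to 183 CPM in WT mice (median 124). Striatal levels ran from 923 to 2696 CPM in KI mice (median 1137) and from 1665 to 6088 CPM in WT mice (median 3373). The KI change was 0.01 (SE 0.17) in liver and -0.997 (SE 0.11) in striatum, a difference of 1.01 (SE 0.20, edgeR adjusted p = 0.0066). For mir-182, liver levels ran from 18912 to 76704 CPM in KI mice (median 40735) and from 20774 to 67607 CPM in WT mice (median 39854). Striatal levels ran from 510 to 4272 CPM in KI mice (median 923) and from 290 to 2190 CPM in WT mice (median 761). The KI change was -0.06 (SE 0.19) in liver and 1.10 (SE 0.20) in striatum, a difference of -1.16 (SE 0.27, edgeR adjusted p = 0.021).

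Both calls rest on a term for L number 8, which occurs in 4 KI and 4 WT striatal libraries and in no liver of this line. Striatal mir-187 was 923 to 1137 CPM in KI libraries with L number 8 and 1908 to 2696 CPM in KI libraries with L number 7. In WT it was 1665 to 1897 CPM with L number 8 and 4849 to 6088 CPM with L number 7. Striatal mir-182 was 510 to 923 CPM in KI libraries with L number 8 and 2806 to 4272 CPM with L number 7. In WT libraries mir-182 was 290 to 566 CPM with L number 8 and 956 to 2190 CPM with L number 7. Without the L number 8 term 0 features differed. The difference was then 1.21 (SE 0.44, edgeR adjusted p = 0.27) for mir-187 and -1.03 (SE 0.62) for mir-182. Of the mice, 15 gave both a liver and a striatal library. With the animal as a block in limma voom 1 feature differed, mir-187, and mir-182 had an adjusted p of 0.10.

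The mir-181c and mir-212 hairpins were also followed because, like mir-187, they had been named in striatum by earlier results of these same data. Their striatal changes are therefore not further support. The mir-181c hairpin (MI0000271) ran from 199 to 349 CPM in KI livers (median 243) and from 177 to 547 CPM in WT livers (median 315) in the liver fit, a change of -0.27 (SE 0.20, edgeR adjusted p = 0.99) that became -0.14 without WT replicate F1. In the 2-tissue fit its KI change was -0.28 (SE 0.16) in liver and 0.44 (SE 0.13) in striatum, a difference of -0.72 (SE 0.20, adjusted p = 0.068). The neuronal activity hairpin mir-212 (MI0000288) was too low for the liver test, with 17 counts over the 8 KI livers and 19 over the 8 WT livers. In striatum it fell by 0.78 on the log2 scale (SE 0.11, edgeR adjusted p = 8.6e-06), to 626 to 1099 CPM in KI mice against 1158 to 1969 CPM in WT mice.

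**Figure D5:**
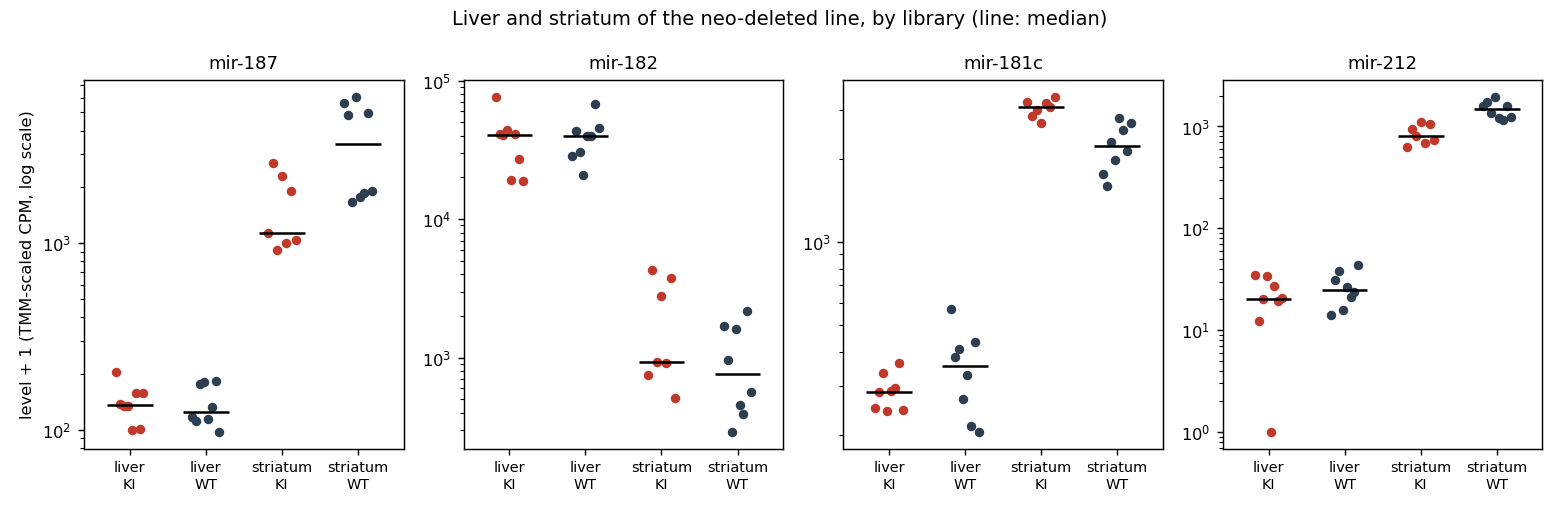
TMM-scaled CPM plus 1 by library (log axis) for mir-187, mir-182, mir-181c and mir-212 in liver and striatum of the neo-deleted line, KI (red) left of WT (dark), bars at the medians. In liver the genotypes overlap in all 4 panels, while in striatum mir-212 lies at 626 to 1099 in KI and 1158 to 1969 in WT.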

How the data were processed

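Small RNA was sequenced from liver of 8 KI and 8 WT mice. RNA from frozen tissue was extracted with a Qiagen kit and enriched fractions went into Illumina libraries, per the labels' protocols. The authors deposited estimated counts per hairpin, not scaled for library size, and FPKM (counts scaled by feature length and library total). CASAVA 1.8.2 and the assembly mm10 are named in the submitters' processing notes, whereas an aligner and a counting tool are not given in the sources used here. A fractional part beyond 0.005 occurred in 28.97% of the 3096 estimates that reached 1.

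Counts were rounded and fitted for all 32 livers with edgeR 4.0.16 in R 4.3.3 (TMM, filterByExpr with minimum count 10 and minimum total 15, quasi-likelihood test, Benjamini-Hochberg adjustment over all features, threshold 0.05), with 4 groups of line and genotype and sex as a covariate. Sex contrasts used 8 groups. The 2-tissue fit added terms for sex and L number 8. The filter kept 131 features with 99.82% of the counts. SE is that of the log2 change, derived in edgeR fits from the change and the F statistic of its test. The 95% intervals use that SE, and P values are two-sided. The labels mention no molecular identifiers, so floors cover counting error only. The scripts were tested on simulated data.

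The features named are the 10 with the smallest p (no feature was called), the 10 most abundant, up to 5 called per difference between lines, sexes or tissues, list leaders, and 3 features named earlier in striatum. The members and lists were chosen with earlier results of these data known. The lists had been meant for use only if the files or the reference named the accessions. They were applied with names from general knowledge, which departs from the plan, and list sums are given as ranges without the planned test. Alternatives were DESeq2 1.42.0, limma 3.58.1 (voom, or log2 of FPKM plus 1 or 0.1), other scalings and filters, L number, replicate block, single sexes and leaving out each library. The sum over hairpin copies (18 miRNAs, 37 hairpins) and the sex contrasts in neo-intact livers were added after seeing the data.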

Additional observations from a re-analysis of the deposited data

Results flagged for a closer look

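Of 80 groups of 8 examined for a single distant library, 8 held one, where chance gives about 1 in 20. In let-7e (MI0000066), WT replicate M4 stood at 271 CPM, with the next WT liver at 142 CPM. In mir-10b (MI0000267), KI replicate M2 stood at 747 CPM, with the next KI liver at 196 CPM. In mir-192 (MI0000234), KI replicate M1 was lowest, at 145961 CPM, with the next KI liver at 182843 CPM. In mir-148a (MI0000253), WT replicate F2 was highest, at 69691 CPM, with the next at 54893 CPM. In mir-181c (MI0000271), WT replicate F1 stood at 547 CPM, with the next at 341 CPM.

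Among the summed lists, the immune sum reached 4158 CPM in WT replicate M1, with the next at 3039 CPM. The Huntington's disease brain list reached 99053 CPM in KI replicate M4, with the next at 83745 CPM. The let-7 sum reached 36104 CPM in KI replicate F1, with the next at 31236 CPM. The 8 values belong to 8 different libraries.

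Effects that differed between groups by a direct test were the sex difference of mir-802 (MI0003906) between the lines, at -1.36 (neo-deleted minus neo-intact, log2), and the KI effects of mir-187 (MI0000274) and mir-182 (MI0000272) between liver and striatum, at 1.01 and -1.16 (liver minus striatum, log2). Without the L number 8 term 0 features differed between the tissues (edgeR adjusted p = 0.27 for mir-187), and with the animal as a block in limma voom mir-182 had an adjusted p of 0.10.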

How the results depend on the processing

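The number of features called between KI and WT livers was 0 under every setting run: other scalings and filters, DESeq2, limma on voom or FPKM values, no sex term, L number as a factor, L number 2 alone, the 2 groups alone, each sex alone, copies summed, and each library left out (0 to 0). Whether the replicate numbers pair KI with WT animals could not be settled from 8 pairs. The correlation between KI and WT livers of the same number ran from -0.32 to 0.38 and was over 0.1 in 3 of 8 pairs. It was highest for the own number in 3 of 8. The replicate block also gave 0 called. The sex calls numbered 5 to 7 over the settings run, which included L number as a factor. The liver minus striatum count, 2, became 0 without the L number 8 term, 1 with the animal as a block in limma voom, and 3 with DESeq2 size factors or a filter of 10 CPM in 7 libraries. With the block mir-182 had an adjusted p of 0.10, and mir-181c passed the test with size factors (-0.75, adjusted p = 0.043) and with the filter (-0.77, adjusted p = 0.048). The cause was not tested.

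The sign of the mir-187 change in liver, 0.02, turned with voom (-0.032), L number as a factor (-0.016), females alone (-0.15) and copies summed (-0.0011), and ran from -0.075 to 0.082 as libraries were left out. Signs also turned for mir-199a-1 in males alone (0.050), mir-10a in females alone (-9.0e-04) and mir-10b in females alone (-0.027). Leaving out 1 library took the change of let-7e to 0.42 without KI F1, of mir-27b to -0.14 without KI M1 and of mir-181c to -0.14 without WT F1. The mir-212 hairpin, with 17 counts in KI and 19 in WT livers, was too low for the liver test.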
